A study of Homo sapiens with 4 samples.

Results

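The mRNAs of 10 genes of iron uptake, storage, export and sensing were compared between 786-O cells without VHL (786-O-Ctrl) and after VHL restoration (786-O-VHL). The genes are CP, TFRC, FTH1, FTL, SLC40A1, SLC11A2, IREB2, ACO1, HMOX1 and NCOA4. They were found by gene symbol in the table of counts, and where a symbol was repeated the Ensembl identifier with the most counts was taken. A row was found for 9 of the 10 among 12912 genes, each symbol occurring once, and SLC40A1 was not analysed here. The line derives from a clear cell renal carcinoma and lacks functional VHL, the protein that marks the alpha subunits of the hypoxia-inducible factors (HIF) for degradation when oxygen is present. The study asked what restoring VHL changes in these cells. 786-O-Ctrl is VHL-null, and 786-O-VHL expresses HA-tagged VHL from a retroviral vector. The libraries of both groups are named for the subline that also carries a retroviral triple reporter (GFP, luciferase and thymidine kinase), and all cells were grown in RPMI1640 with serum and antibiotics.

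Each group has 2 libraries. Both 786-O-Ctrl libraries bear one and the same replicate number in the table, and they are called here the deeper library (22141263 counts) and the shallower library (15714166 counts). 786-O-VHL replicate 1 had 2807779 counts and replicate 2 had 16114120. Levels are given in CPM, which are counts scaled to a common library size after adjustment by edgeR's TMM factors. A count of 0 would allow up to 3 counts, or 0.142, 0.199, 1.02 and 0.178 CPM in the libraries in this order, counting error only. Nothing in the labels states that the libraries of a group came from separate cultures. Each group is 1 subline, so the p-values measure the spread between these libraries, which may be technical, and whether a subline was 1 clone or a pool is not stated in the sources used here. In bulk RNA, fewer cells with an mRNA and less of that mRNA per cell cannot be told apart.

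Cells take up most of their iron as transferrin, which binds the transferrin receptor (TFRC) and enters endosomes, where the iron is reduced and carried into the cytosol by SLC11A2 (DMT1). Iron that is not used is stored in ferritin, a shell of heavy (FTH1) and light (FTL) chains, and is set free again when NCOA4 brings ferritin to the lysosome. It leaves the cell through ferroportin (SLC40A1) and is oxidized for transferrin by ceruloplasmin (CP), a copper enzyme. The iron regulatory proteins IRP1 (ACO1) and IRP2 (IREB2) bind a hairpin in mRNAs, the iron-responsive element, when iron is scarce. Binding in a 5' UTR blocks translation, as in ferritin, and binding in the 3' UTR of TFRC protects the mRNA from decay. CP and TFRC are also known as genes that HIF can induce, and 786-O cells are known for high HIF2alpha, which EPAS1 encodes.

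The restored gene was checked first. VHL mRNA was 42.9 and 43.9 CPM in the deeper and shallower library of 786-O-Ctrl against 178 and 163 CPM in replicates 1 and 2 of 786-O-VHL. Both 786-O-VHL libraries were above both 786-O-Ctrl libraries, as their labels state, with a log2 fold change (786-O-VHL over 786-O-Ctrl, here and throughout) of 1.96 (standard error 0.0706, edgeR FDR = 2.87e-19). Folds and log2 fold changes are edgeR's fitted values, which can differ from the ratio of the mean CPM. These counts do not separate the vector's transcripts from those of the endogenous gene. EPAS1 mRNA, which itself carries an iron-responsive element in its 5' UTR, was 319 and 330 CPM for 786-O-Ctrl against 813 and 856 CPM in 786-O-VHL. It was thus 2.58-fold higher in 786-O-VHL (log2 fold change 1.37, standard error 0.0613, edgeR FDR = 3.23e-17), a measure of the mRNA and not of the protein that VHL targets.

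After VHL restoration the iron genes moved in both directions. The mRNAs of ceruloplasmin and the transferrin receptor were markedly lower, those of both ferritin chains were higher, and the mRNAs of SLC11A2, the iron sensors, NCOA4 and heme oxygenase changed by under 1.5-fold or did not pass the test. The threshold, an edgeR FDR under 0.05 (quasi-likelihood test, Benjamini-Hochberg adjustment over 12335 tested genes), was passed by 6 of the 9 genes and by 64.5% of all tested genes. FTH1 and FTL were higher in 786-O-VHL, against 32.6% of all tested genes, and CP, TFRC, SLC11A2 and ACO1 were lower, against 31.9%. So large a share of genes passed that the size of a change says more than the call. CP and TFRC passed a 4-fold change with an FDR under 0.01, as did 4.46% of all tested genes. With library totals as the scaling, TFRC fell short of a 4-fold change (log2 fold change -1.93). CP, TFRC and FTH1 passed a test against a 1.5-fold change (edgeR's glmTreat), as did 23.1%. The libraries of the groups did not overlap for 8 of the 9 genes and for 80% of all tested genes. The median log2 fold change of the 9 genes was 0.02, beside 0.02 for all tested genes, and the median absolute log2 fold change 0.40, beside 0.43. The median iron gene thus changed no more than the median tested gene.

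**Figure D1:**
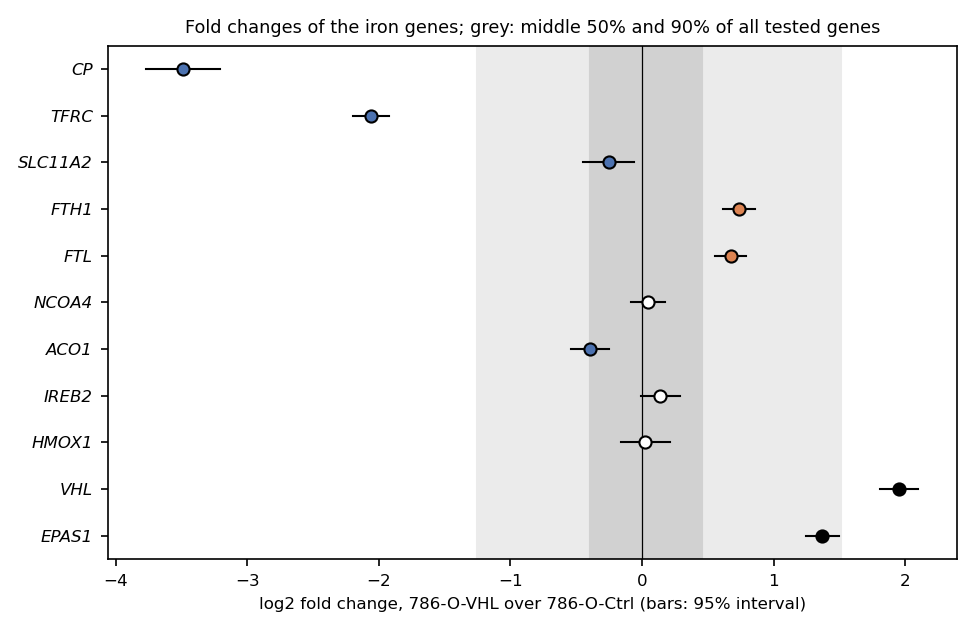
Log2 fold changes, 786-O-VHL over 786-O-Ctrl, of the 9 iron genes and of VHL and EPAS1 (n = 2 libraries a group; bars are 95% intervals). Filled colored points passed an edgeR FDR of 0.05 (blue lower, orange higher), open points did not, and black points are VHL and EPAS1; the grey bands hold the middle 50% and 90% of all tested genes. CP (-3.49) and TFRC (-2.06) lie outside the wider band.

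Ceruloplasmin showed the largest change of the 9 genes. CP (ENSG00000047457.14), on the minus strand at chr3:148880197-148939616 of GRCh37, had 67.8 and 71.4 CPM in the deeper and shallower library of 786-O-Ctrl against 10.2 and 5.40 CPM in 786-O-VHL replicates 1 and 2. The 786-O-Ctrl libraries were close to each other, whereas the 786-O-VHL libraries differed from each other beyond counting error. They rest on 30 and 91 counts, whose exact Poisson 95% intervals are 6.87 to 14.5 CPM and 4.35 to 6.63 CPM. Both nonetheless lay far under 786-O-Ctrl. CP mRNA averaged 69.6 ± 2.57 CPM (SD, n = 2) for 786-O-Ctrl against 7.79 ± 3.37 CPM (SD, n = 2) in 786-O-VHL. The fold fitted by edgeR, which is not the ratio of these means, was 11.2-fold lower after VHL restoration, a log2 fold change of -3.49 (95% interval -3.77 to -3.20, edgeR FDR = 1.92e-18), the gene ranking 124 of 12335 by absolute log2 fold change. The size depended on 1 library, as the log2 fold change was -2.78 without 786-O-VHL replicate 2. HPS3 lies across part of CP on the opposite strand, and whether counting used the strand is not stated in the sources used here.

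The transferrin receptor was the next most changed. TFRC (ENSG00000072274.13) lies on the minus strand at chr3:195739382-195809024 of GRCh37, with 3 annotated genes on the opposite strand. Its 3' UTR is the textbook case of iron-responsive elements that control mRNA decay, and the hairpin loops are shown because they are where IRP1 and IRP2 bind. The canonical transcript was searched for the letters of the element (C, 5 bases, CAGTG, 1 base, then 5 bases that pair with the first 5). G with T counted as a pair. The 3' UTR held 4 sites with 5 of 5 pairs, and TFRC sites with fewer pairs were not kept. Each is printed 5' to 3' in DNA letters with its 6-base loop in capitals, in GRCh37 coordinates on the minus strand.
TFRC site 1, chr3:195777849-195777878: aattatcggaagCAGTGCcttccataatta
TFRC site 2, chr3:195777445-195777474: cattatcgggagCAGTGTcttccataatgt
TFRC site 3, chr3:195777380-195777409: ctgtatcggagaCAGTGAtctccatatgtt
TFRC site 4, chr3:195777333-195777362: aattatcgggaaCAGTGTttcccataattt
A match with 5 pairs occurred in the 3' UTR of 122 of 19368 genes (0.63%). A match is a description of the sequence and does not show binding in these cells.

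TFRC mRNA was 643 and 636 CPM in the deeper and shallower library of 786-O-Ctrl against 146 and 157 CPM in 786-O-VHL replicates 1 and 2. The replicates of each group were near each other and the groups were far apart, in the shallowest library as much as in the other 786-O-VHL library. The means were 640 ± 4.49 CPM (SD, n = 2) and 152 ± 8.09 CPM (SD, n = 2). The fitted fold was 4.17-fold lower after restoration, or a log2 fold change of -2.06 (95% interval -2.20 to -1.92, edgeR FDR = 3.09e-20). By p it ranked 26 of 12335 tested genes, ahead of CP at 82, and by absolute log2 fold change 533.

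The promoter of TFRC is shown because the gene is a known HIF target and carries the core letters of a hypoxia-response element. A RefSeq promoter entry (GRCh38.p14) was found for 7 of the 10 genes, and CP, FTH1 and HMOX1 had no entry. The 250 bases before the TFRC start, chr3:196082091-196082340 on the minus strand, are printed 5' to 3' with ACGTG in capitals.
TFRC promoter: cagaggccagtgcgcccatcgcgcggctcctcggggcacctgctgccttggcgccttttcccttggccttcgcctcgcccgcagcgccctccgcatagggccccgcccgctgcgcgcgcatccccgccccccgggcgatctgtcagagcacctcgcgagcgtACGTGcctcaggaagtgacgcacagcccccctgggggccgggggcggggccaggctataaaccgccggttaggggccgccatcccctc
ACGTG occurs once in this window, its first base 88 bases before the start, and GCGTG and TGACTCAGC (letters of an antioxidant-response element) do not. On either strand, ACGTG is found in 18.5% of 35116 promoters of this length, GCGTG in 32.2% and TGACTCAGC in 0.456%. FTL had 1 match of ACGTG and 2 of GCGTG. ACO1 had 1 match of GCGTG, as had 1 of the starts of IREB2, and among the starts of SLC11A2 there was 1 with 3 matches of GCGTG and 1 with 1. The entries of NCOA4 and SLC40A1 held none of these letters. A match in these windows is a description of the letters and not of a site.

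SLC11A2, which carries ferrous iron out of the endosome, changed little. SLC11A2 (ENSG00000110911.16), on the minus strand at chr12:51373184-51422349 of GRCh37, had 41.3 and 40.2 CPM for 786-O-Ctrl against 34.6 and 34.1 CPM in 786-O-VHL. All 4 libraries lay in a narrow range, with those of 786-O-VHL slightly under those of 786-O-Ctrl. The log2 fold change was -0.25 (95% interval -0.45 to -0.06, edgeR FDR = 0.0195), 1.19-fold lower. The call was not kept by DESeq2 (-0.27, adjusted p = 0.14), by edgeR with library totals as the scaling (-0.12, FDR = 0.264) or by edgeR on thinned libraries (-0.24, FDR = 0.187). It was also lost in edgeR without the deeper (FDR = 0.176) or the shallower (FDR = 0.0915) 786-O-Ctrl library and without 786-O-VHL replicate 2 (FDR = 0.189). Some SLC11A2 transcripts carry an iron-responsive element. The canonical one has 1 match in its 3' UTR with 4 of 5 pairs, shown to compare its loop with those of TFRC. Among the sites printed here, matches with 4 of 5 pairs were kept for SLC11A2 only.
SLC11A2 site, chr12:51382051-51382080, minus strand of GRCh37: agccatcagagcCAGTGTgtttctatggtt
Matches with at least 4 pairs are less rare, in 4.33% of 19368 3' UTRs. Counts per gene do not separate transcripts with the element from those without it.

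**Figure D2:**
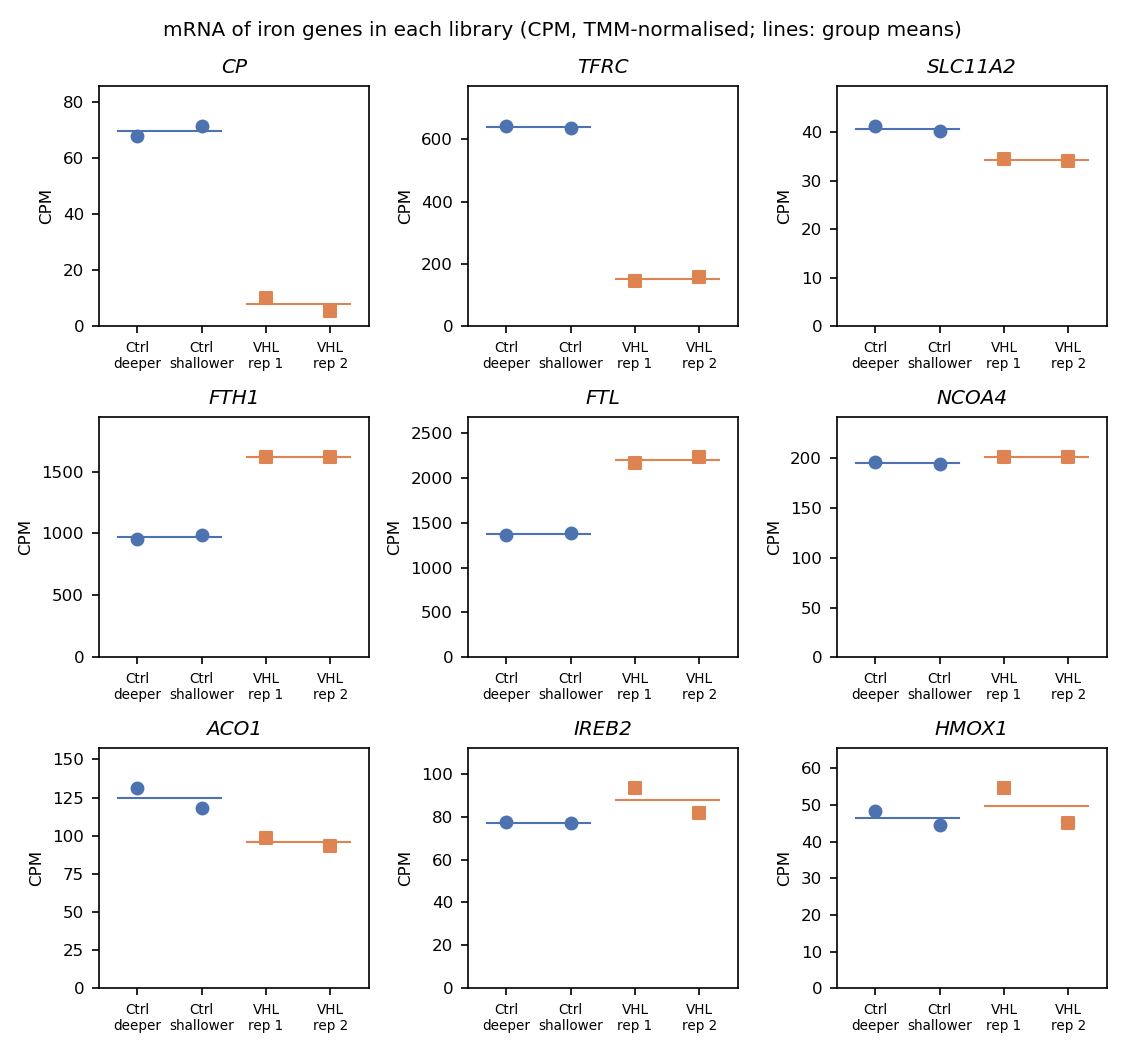
CPM of the 9 iron genes in each of the 4 libraries (circles, 786-O-Ctrl; squares, 786-O-VHL; lines, group means; each axis starts at 0). CP and TFRC are lower and FTH1 and FTL higher in each 786-O-VHL library, and the libraries of the groups overlap for HMOX1.

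The mRNAs of both ferritin chains were more abundant after VHL restoration, and protein was not measured in these libraries. FTH1 (ENSG00000167996.16), the heavy chain whose ferroxidase center loads iron into the shell, lies on the minus strand at chr11:61727190-61735106 of GRCh37, with BEST1 on the opposite strand. FTH1 mRNA was 955 and 986 CPM in the deeper and shallower library of 786-O-Ctrl against 1616 and 1617 CPM in 786-O-VHL replicates 1 and 2. The 786-O-VHL libraries were nearly identical in spite of their unequal depth, and both were above 786-O-Ctrl. The means were 971 ± 22.2 CPM (SD, n = 2) and 1617 ± 0.589 CPM (SD, n = 2). The fitted fold was 1.67-fold higher after restoration, or a log2 fold change of 0.74 (95% interval 0.62 to 0.86, edgeR FDR = 8.55e-12), and the test against 1.5-fold gave a glmTreat FDR of 0.00899 in edgeR.

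FTL (ENSG00000087086.15), the light chain that helps the stored iron to mineralize, lies on the plus strand at chr19:49468566-49470136 of GRCh37. Its 5' UTR holds 1 match to the iron-responsive element with 5 of 5 pairs, the site at which IRPs are known to block translation.
FTL site, chr19:49468592-49468621, plus strand of GRCh37: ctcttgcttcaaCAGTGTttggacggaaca
A 5-pair match was found in the 5' UTR of 18 of 18700 genes (0.0963%). Whether FTH1 is among them is not reported here. FTL mRNA was 1365 and 1391 CPM in the deeper and shallower library of 786-O-Ctrl against 2162 and 2232 CPM in 786-O-VHL replicates 1 and 2, again with both 786-O-VHL libraries higher. The means were 1378 ± 18.6 CPM (SD, n = 2) and 2197 ± 49.9 CPM (SD, n = 2), and the fitted fold was 1.60-fold higher, a log2 fold change of 0.67 (95% interval 0.55 to 0.79, edgeR FDR = 5.00e-11). It did not pass the test against 1.5-fold (edgeR glmTreat FDR = 0.0818). Both ferritin genes have many processed pseudogenes, so reads of one locus can be placed at another, and pseudogene rows were not analysed here. An mRNA level also leaves unseen what the IRPs do to ferritin at translation.

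NCOA4, the receptor that takes ferritin to the lysosome, did not pass the test. NCOA4 (ENSG00000266412.5, chr10:51565199-51590734 of GRCh37, plus strand) had 196 and 194 CPM for 786-O-Ctrl against 201 and 201 CPM in 786-O-VHL. The 4 libraries were almost level, although those of 786-O-VHL were nominally the higher. Its log2 fold change was 0.04 with a 95% interval of -0.08 to 0.17 (edgeR FDR = 0.551), so that a change of 1.13-fold upward or more lay outside the interval. With library totals as the scaling, which raised all genes by a median of 0.13, the log2 fold change was 0.18 (edgeR FDR = 0.0137).

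The genes of the iron sensors moved little and not together. ACO1 (ENSG00000122729.19, chr9:32384601-32454767 of GRCh37, plus strand) encodes IRP1, which is a cytosolic aconitase while it holds an iron-sulfur cluster and binds RNA when it does not. ACO1 mRNA was 131 and 118 CPM in the deeper and shallower library of 786-O-Ctrl against 98.4 and 93.4 CPM in 786-O-VHL replicates 1 and 2. The 786-O-Ctrl libraries were further apart than those of 786-O-VHL, and both were above them. ACO1 was 1.32-fold lower after VHL restoration (log2 fold change -0.40, 95% interval -0.54 to -0.25, edgeR FDR = 1.95e-05).

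IREB2 (ENSG00000136381.13, chr15:78729773-78793795 of GRCh37, plus strand) encodes IRP2, which is degraded when iron is plentiful. IREB2 mRNA was 77.4 and 77.0 CPM for 786-O-Ctrl against 93.3 and 81.9 CPM in 786-O-VHL replicates 1 and 2. The shallow replicate 1 was the highest, on 275 counts, and its counting interval (82.6 to 105 CPM) overlapped that of replicate 2 (77.6 to 86.3 CPM). The log2 fold change of 0.14 (95% interval -0.01 to 0.29) did not pass (edgeR FDR = 0.0956). It did pass in edgeR without 786-O-VHL replicate 2 (0.27, FDR = 0.0279) and with library totals as the scaling (0.27, FDR = 0.00173). Within a library, where no scaling enters, the ratio of IREB2 to ACO1 counts was 0.59 and 0.652 for 786-O-Ctrl against 0.948 and 0.877 in 786-O-VHL replicates 1 and 2. The balance of the sensor mRNAs was thus shifted toward IREB2 in both 786-O-VHL libraries, while neither value measures the protein or its RNA binding.

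HMOX1 (ENSG00000100292.17, chr22:35776354-35790207 of GRCh37, plus strand) encodes heme oxygenase 1, which frees iron from heme. HMOX1 mRNA was 48.4 and 44.5 CPM in the deeper and shallower library of 786-O-Ctrl against 54.6 and 45.0 CPM in 786-O-VHL replicates 1 and 2. It is the gene of the 9 whose groups overlapped, with a log2 fold change of 0.02 (95% interval -0.16 to 0.21, edgeR FDR = 0.83). A change of 1.16-fold upward or more lay outside the interval. Without 786-O-VHL replicate 2, however, the log2 fold change was 0.22, above the upper end of that interval. The sign turned without the shallower 786-O-Ctrl library (-0.016) and without 786-O-VHL replicate 1 (-0.051).

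The receptor and its storage counterpart can be set against each other within each library, free of any scaling between libraries. The ratio of TFRC to FTH1 counts was 0.673 in the deeper and 0.645 in the shallower 786-O-Ctrl library, and 0.0903 and 0.0973 in 786-O-VHL replicates 1 and 2. Uptake receptor mRNA thus declined relative to ferritin heavy chain mRNA in both 786-O-VHL libraries, and the groups lay far apart beside the spread of their replicates. The ratio of FTH1 to FTL counts was 0.70 and 0.709 for 786-O-Ctrl against 0.748 and 0.724 in 786-O-VHL replicates 1 and 2, so the chains rose nearly in step. TFRC and CP did not fall in step. The ratio of TFRC to CP counts was 9.48 and 8.91 for 786-O-Ctrl against 14.3 and 29.1 in 786-O-VHL replicates 1 and 2, higher in both although the replicates differed widely.

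Levels of different genes were compared per kilobase of the canonical transcript (CPM per kb). In 786-O-Ctrl the order was FTL (1582), FTH1 (807), TFRC (128), NCOA4 (56.3), HMOX1 (29.9), ACO1 (16.8), CP (15.6), IREB2 (12.2) and SLC11A2 (9.87). In this order, the libraries of the neighbours ACO1 and CP overlapped. In 786-O-VHL, FTL (2522) and FTH1 (1344) were again first, followed by NCOA4 (58.1), HMOX1 (32.1), TFRC (30.3), IREB2 (13.9), ACO1 (12.9), SLC11A2 (8.31) and CP (1.75). Here the libraries of HMOX1 and TFRC overlapped, as did those of IREB2 and ACO1. Ferritin led in both sublines, TFRC went from rank 3 to rank 5, and CP from rank 7 to the last, rank 9. Transcript use in these cells was not measured, so these lengths are those of the annotation.

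**Figure D3:**
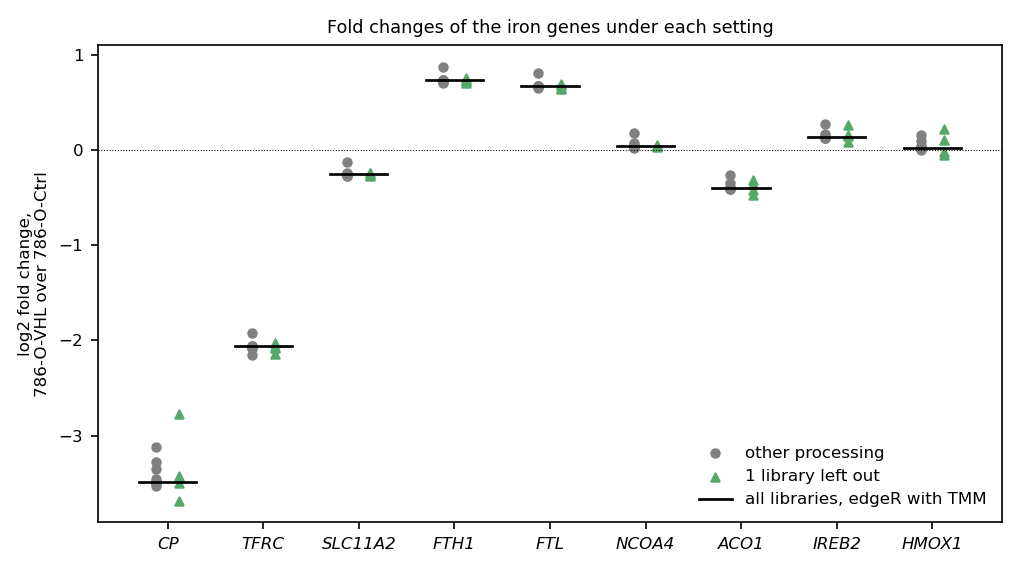
Log2 fold change of each of the 9 iron genes in edgeR with TMM on all libraries (line), under other processing (circles) and with 1 library left out (triangles). CP ranges from -3.68 to -2.78 and TFRC from -2.15 to -1.93, FTH1 and FTL stay above 0, and HMOX1 lies on both sides of 0.

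The neighbours of these genes in iron metabolism were read from 11 lists, which share genes. Apart from the 9 genes, 101 list genes were tested, of which 29 rose and 37 fell after VHL restoration (edgeR FDR under 0.05), 37 were higher and 29 lower with library totals as the scaling, and DESeq2 called 21 higher and 32 lower. These 66 are 65.3% of the list genes, near the 64.5% of all tested genes. The iron lists moved in both directions, and the account of each is limited to the genes around the members.

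In the list of the transferrin cycle and ferrous iron import, 2 of 13 tested genes were higher and 7 lower (median log2 fold change -0.24), or 2 and 5 with library totals and 2 and 6 in DESeq2. TFRC and SLC11A2 are among the 7. STEAP3, the endosomal reductase that prepares iron for SLC11A2, had a log2 fold change of -0.88 (edgeR FDR = 1.02e-10), which places it beside TFRC in direction. SLC39A8, a transporter of zinc, manganese and iron, had -1.06 (edgeR FDR = 1.89e-11). TFR2, the other transferrin receptor, is known from liver and erythroid cells and was scarce here, with 72 counts for 786-O-Ctrl against 2 in 786-O-VHL, a ratio of rates of 19.7 (exact 95% counting interval 5.27 to 166). MELTF, a membrane-anchored relative of transferrin, was higher (1.34, edgeR FDR = 6.47e-16). LCN2, which binds iron-carrying siderophores, had 1 count for 786-O-Ctrl against 69 in 786-O-VHL, a ratio of 126 (exact 95% counting interval 21.9 to 5044). Carriers other than the transferrin receptors were thus found in both directions, with MELTF and LCN2 higher and SLC39A8 and SLC39A14 (-0.24, edgeR FDR = 0.00179, but 0.138 with library totals) lower.

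Of 7 tested ferrireductases, which reduce ferric iron for transport, 3 were higher and 2 lower (median -0.16). The STEAP family was divided, STEAP2 (1.71, edgeR FDR = 1.60e-09) and STEAP1 (1.08, edgeR FDR = 2.85e-06) being higher while STEAP3 was lower. CYBRD1, the duodenal cytochrome b, was higher from a low level (0.351 to 1.95 mean CPM, log2 fold change 2.11, edgeR FDR = 0.00239). Among genes of export, ferroxidases and hepcidin control, 2 of 6 were higher and 3 lower (median -0.15), or 2 and 2 with library totals and in DESeq2. Beside CP, FURIN, a protease that cuts prohormones including that of hepcidin, was lower (-0.44, edgeR FDR = 1.51e-06), and APP (0.47) and NEO1 (0.46) were higher.

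**Figure D4:**
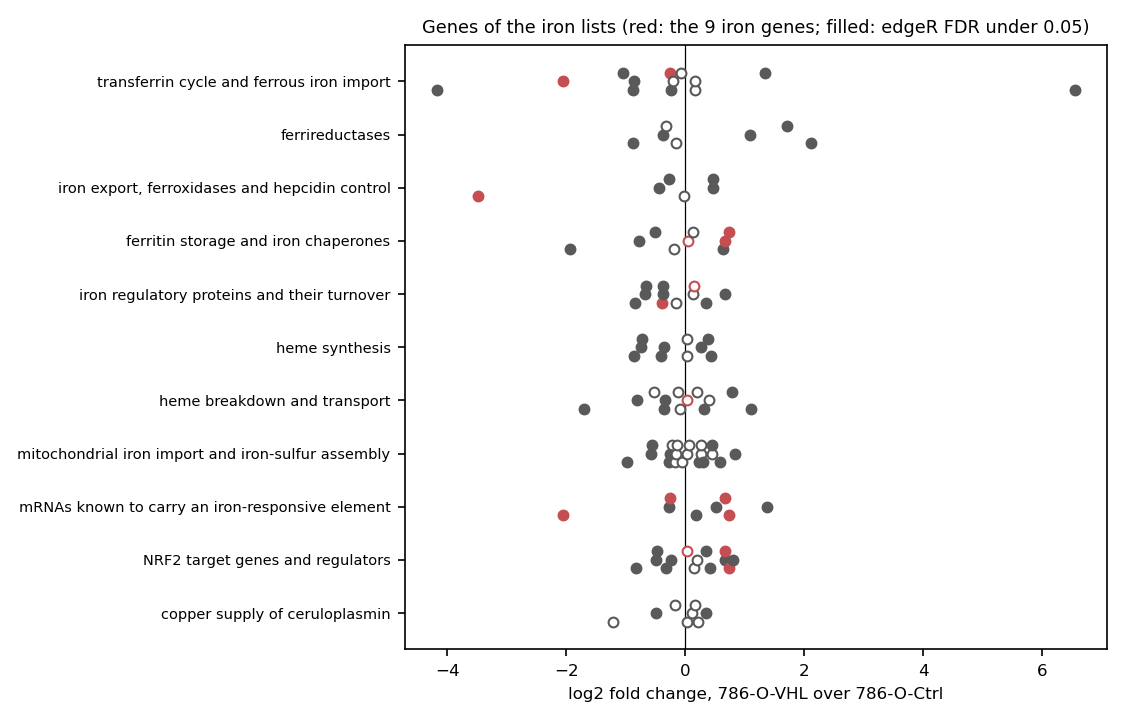
Log2 fold changes, 786-O-VHL over 786-O-Ctrl, of the tested genes of each of the 11 iron lists (red, the 9 iron genes; filled, edgeR FDR under 0.05). Genes of most lists lie on both sides of 0. The outermost points are LCN2 and TFR2, whose fitted values rest on 1 count and 2 counts in the lower group.

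In the list of ferritin storage and iron chaperones, 3 of 9 tested genes were higher and 3 lower (median 0.04), or 5 and 3 with library totals. FTH1 and FTL were higher together with TAX1BP1 (0.63, edgeR FDR = 1.21e-09), an autophagy receptor needed to bring ferritin with NCOA4 to lysosomes. PCBP1, the chaperone that delivers iron to ferritin, was lower (-0.78, edgeR FDR = 2.98e-08), and so was PROM2 (-1.93, edgeR FDR = 3.64e-10), which takes part in the export of ferritin in vesicles. PCBP2, a related iron chaperone, did not pass (0.14, edgeR FDR = 0.0603) but was higher with library totals (0.27, edgeR FDR = 0.000434).

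For the iron regulatory proteins and their turnover, 2 of 11 tested genes were higher and 6 lower (median -0.37), or 4 and 6 with library totals. FBXL5, the iron-sensing subunit of the ligase that degrades IRP2, was higher (0.67, edgeR FDR = 4.80e-09). The other subunits of that ligase, which it shares with many complexes, were lower, RBX1 by a log2 fold change of -0.84 (edgeR FDR = 8.29e-10) and CUL1 by -0.66 (edgeR FDR = 1.50e-09). MMS19, of the cytosolic machinery that hands iron-sulfur clusters to proteins, was also lower (-0.68, edgeR FDR = 2.44e-09). The other higher gene of the list was CIAO2B, of the same machinery (0.35, edgeR FDR = 6.22e-05). Of 8 tested genes whose mRNAs are known to carry an iron-responsive element, 5 were higher and 3 lower (median 0.35), or 5 and 1 with library totals and 3 and 2 in DESeq2. In this group EPAS1, FTH1 and FTL, with the element in the 5' UTR, were higher and TFRC, with it in the 3' UTR, was lower. CDC14A, with a 3' element, was higher (0.51, edgeR FDR = 0.0112), a call that DESeq2 did not make (0.48, adjusted p = 0.156).

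The genes most like CP over the 4 libraries, by Euclidean distance between log2 CPM centred on each gene's mean, were GALNT5 (distance 0.252), CCNE2 (0.443), KRT15 (0.46), KCNH2 (0.464) and CA12 (0.474) among 12335 tested genes. Among those most like FTH1 were ZNF160 (0.0195), YARS (0.0203), MCTP2 (0.0245) and GOT1 (0.0307). With 4 libraries in 2 groups, this measure reflects chiefly the size of the group difference.

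The cells carried the markers of their labelled origin. All 8 genes of a list for renal tubule and carcinoma lines had a row, among them PAX8 at 277 and 272 CPM for 786-O-Ctrl against 166 and 137 CPM in 786-O-VHL. Their summed level was 3163 and 3148 CPM for 786-O-Ctrl against 1963 and 1822 CPM in 786-O-VHL, with VIM the most abundant. The sum was lower mainly through VIM (1669 and 1699 CPM for 786-O-Ctrl, 751 and 709 CPM for 786-O-VHL) and KRT8 (769 and 741 CPM, then 477 and 541 CPM). CDH6 went the other way, from 219 and 215 CPM to 366 and 251 CPM. Ceruloplasmin and ferritin are also abundant in liver and macrophages. Of 5 hepatocyte markers only SERPINA1 had a row, at 25.5 and 26.1 CPM for 786-O-Ctrl against 34.6 and 27.9 CPM in 786-O-VHL, and of 4 leukocyte and macrophage markers only CD14, at 1.02 CPM or less. None of 5 erythroid markers had a row. Of 2 endothelial markers PECAM1 had one, at 0.427 CPM or less, and of 3 fibroblast markers COL1A1, at 7.12 CPM or less. Markers without a row were not analysed here. The part of the lower renal marker sum in the changes of the iron genes was not tested.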

How the data were processed

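Total RNA of both sublines, 786-O-Ctrl as well as 786-O-VHL (n = 2 libraries each), was sequenced on Illumina libraries. The authors deposited raw counts per gene for 12912 genes, not normalized. The submitters' processing notes name hg19, CASAVA and STAR without versions, while counting tool, strand use and annotation were not stated in the sources read. The 786-O-Ctrl columns share 1 replicate number and were used without one. Replicates differed beyond sampling noise (chi-square per degree of freedom 2.25 and 2.76).

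Differences were tested in edgeR 4.0.16 (R 4.3.3) with filterByExpr (minimum count 10; 12335 genes tested), TMM, quasi-likelihood F test with group as single term, and Benjamini-Hochberg adjustment over all tested genes. The biological coefficient of variation was 4.31%. With 2 against 2 libraries a two-sided exact permutation p cannot be under 0.333. Standard errors and intervals follow from the F statistic. Coordinates, lengths and elements came from a GRCh37 annotation and genome, and promoters from RefSeq. The steps were tested on simulated data. Alternatives were DESeq2 1.42.0, limma-voom (limma 3.58.1), RLE factors, library totals, other filters, thinning, a prior count of 2, glmTreat and leaving out each library.

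The members and lists were chosen with earlier results of these data known. Named genes are the members, VHL, EPAS1, and, from every list, up to 3 higher and 3 lower genes of greatest fold change past an FDR of 0.05. SLC39A14, PCBP2, ISCA1, ISCA2 and SLC31A2 were named besides, after their values were seen. Some genes that the rule takes in are not reported here.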

Additional observations from a re-analysis of the deposited data

How the results depend on the processing

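No paired analysis was possible because both 786-O-Ctrl columns carry the same replicate number, so a fit with the replicate as a term was not run. Summing FTH1 and FTL with pseudogene rows was not run for want of such rows among those used. CP, TFRC, FTH1, FTL and ACO1 kept their direction and their call under all 12 alternatives that test for any change. The exceptions for SLC11A2, IREB2 and NCOA4 are given above, and over the 12 alternatives their adjusted p (edgeR, limma or DESeq2) ranged from 0.0138 to 0.264, from 0.00173 to 0.338 and from 0.0137 to 0.847. HMOX1, never called, turned sign without the shallower 786-O-Ctrl library (-0.016) and without 786-O-VHL replicate 1 (-0.051, its range with 1 library left out being -0.051 to 0.22); the cause was not tested. Against a 1.5-fold change edgeR's glmTreat called 3 of the iron genes, 22 list genes and 2849 of all genes, by its stricter construction. Library totals moved the median of all genes by 0.133 and gave 5077 higher and 3097 lower genes in place of 4017 and 3939, and 4 higher and 3 lower iron genes in place of 2 and 4. With 1 library left out, 5 to 6 iron genes, 51 to 69 list genes and 6049 to 8209 of all genes were called; the lone library of a group is then assumed to vary like the others. DESeq2 called 5 iron genes and 5966 of all genes, and thinning to the shallowest library 5 and 5750. The depth of 786-O-VHL replicate 1 limits CP (30 counts there) more than the other iron genes.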

Other observations

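Genes of heme, iron-sulfur, redox and copper metabolism are given by list, and their counts are to be read beside the 64.5% of all tested genes that passed an edgeR FDR of 0.05. Of the list genes other than the 9 iron genes, 65.3% passed. Of 10 tested genes of heme synthesis, 3 were higher and 5 lower in 786-O-VHL (median log2 fold change -0.17), or 4 and 5 with library totals and 1 and 5 in DESeq2. UROD (-0.73, edgeR FDR = 1.16e-09), an enzyme in the middle of the pathway, and ABCB10 (-0.86, edgeR FDR = 5.20e-06), a mitochondrial transporter, were lower, while PPOX was higher (0.43, edgeR FDR = 0.00422) but not called by DESeq2 (adjusted p = 0.119). For heme breakdown and transport, 3 of 13 were higher and 4 lower, with a median of -0.08. With library totals 4 were higher and 4 lower, and the median turned to 0.05. SLC48A1, which moves heme out of the endolysosome, was higher (1.11, edgeR FDR = 9.35e-14), as was BLVRB, a biliverdin reductase (0.78, edgeR FDR = 1.08e-09). FLVCR1, described as a heme exporter, was lower (-0.81, edgeR FDR = 2.86e-05), and HMOX1 between them did not pass.

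In mitochondrial iron import and iron-sulfur assembly, 5 of 20 genes were higher and 5 lower, with a median of -0.01. With library totals 6 were higher and 2 lower and the median was 0.12, and DESeq2 called 3 higher and 2 lower. ISCU, the scaffold on which clusters are built, was higher (0.84, edgeR FDR = 6.05e-10), as were the chaperone HSPA9 (0.59, edgeR FDR = 1.60e-09) and the iron importer SLC25A37 (0.46, edgeR FDR = 2.40e-06). BOLA3 (-0.99, edgeR FDR = 7.03e-06) and GLRX5 (-0.58, edgeR FDR = 3.64e-07), which act after the scaffold, were lower, while ISCA1 (0.23, edgeR FDR = 0.0341) and ISCA2 (0.30, edgeR FDR = 0.0378), which act there too, were higher in edgeR but not called by DESeq2 (adjusted p = 0.206 and 0.325). Of 14 targets and regulators of NRF2, a transcription factor of the antioxidant response that can induce both ferritin genes and HMOX1, 6 were higher and 5 lower (median 0.17), or 7 and 3 with library totals and 5 and 4 in DESeq2. NFE2L2, which encodes NRF2, was higher (0.80, edgeR FDR = 1.46e-11), as were FTH1 and FTL, whereas GCLM was lower (-0.83, edgeR FDR = 5.05e-11). Of 8 genes that supply copper, the cofactor of ceruloplasmin, ATP7A was higher (0.34, edgeR FDR = 0.0394), ATOX1 lower (-0.49, edgeR FDR = 0.00023) and the other 6 did not pass (median 0.08), while 4 were higher and 1 lower with library totals. In DESeq2 ATOX1 was the 1 gene called (adjusted p = 0.0071), and the call of ATP7A was lost (adjusted p = 0.315). Among the 6 that did not pass in edgeR, SLC31A2 had a log2 fold change of -1.22 (edgeR FDR = 0.067) on few counts. These were 21 and 21 for 786-O-Ctrl against 0 and 10 in 786-O-VHL replicates 1 and 2. The fall of CP mRNA thus had no counterpart of like size among the called genes of copper supply.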
